A study of Homo sapiens with 6 samples.

Results

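The genes described here make cholesterol, sense it, or move it within and out of the cell. They are 32 of the 60612 genes in the deposited table, chosen because their gene symbol is on a list of sterol synthesis enzymes, regulators of the sterol-sensing transcription factor SREBP, and transport genes. All 32 had enough reads to be tested, among 15937 genes that did. RNA was sequenced from A549, an established lung adenocarcinoma line of epithelial origin, at 48 hours after siRNA transfection. Small interfering RNA to GSE1 was used for 3 libraries (siGSE1) and a negative control siRNA for the other 3, and all 6 share the cell line and the transfection. GSE1 encodes a protein found with a histone deacetylase complex, and the study asked which genes and pathways depend on it. The design rests on a single cell line, and no siRNA sequence was used here. Nothing in the labels says whether the 3 replicates were separate cultures, so each p-value reflects library-to-library spread that may be technical.

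As background, cholesterol is built from acetyl-CoA through mevalonate and farnesyl pyrophosphate to squalene, which is closed into lanosterol and trimmed to cholesterol. When sterols in the endoplasmic reticulum run low, SCAP carries the SREBP precursor to the Golgi, where the site-1 and site-2 proteases release a fragment that enters the nucleus and raises transcription of nearly every enzyme of the route. When sterols are ample, INSIG proteins hold SCAP and SREBP back. In the lung, cholesterol is a component of surfactant, which alveolar epithelial cells secrete.

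HMGCS1 was far lower in siGSE1 cells, at 13.5 ± 0.41 FPKM against 35.2 ± 2.49 FPKM in control cells (SD, n = 3 each; FPKM is the read count scaled to exon length and library total). The other 31 genes had log2 fold changes between -0.37 and 0.37. Of the 20 synthesis enzymes, 9 fell and 2 rose, while of the 12 genes of SREBP control, movement and export 1 fell and 4 rose. The 2 synthesis enzymes that rose were PMVK and LSS, and the 4 others that rose were SCAP, INSIG1, MBTPS1 and NPC2. In all, 10 members fell, 6 rose and 16 did not pass an adjusted p of 0.05 in edgeR's quasi-likelihood test. Over all genes tested, 9.02% fell, 10.9% rose and 19.9% changed in either direction, beside 31.2% and 18.8% of the members, and 50% of them in either direction. These splits depend on scaling. Over all genes 1730 rose and 1437 fell in the main analysis, and 2544 rose and 929 fell with TPM scaling (7 and 7 of the members), which shifted the median of all genes by 0.07 on the log2 scale. The typical change was small. The median absolute log2 fold change was 0.21 over the members and 0.17 over all genes tested, and the median signed log2 fold change was -0.05 and 0.00. HMGCS1 was the single member whose log2 fold change was 0.5 or more in size, 3.12% of the list, against 12.9% of all genes tested. By mean FPKM, members ranked from percentile 41.1 (GGPS1), 46.1 (SC5D) and 50.2 (HSD17B7) up to 94.7 (DHCR7) of the genes tested. The shares above therefore do not compare genes of like abundance. The median log2 fold change was -0.12 among synthesis enzymes and 0.04 among the other members, a difference that was not tested. Single libraries moved these counts. The number of enzymes that fell was 4 without siGSE1 replicate 1 and 5 without siGSE1 replicate 2, and the number of members that fell was 5 and 6. Without siGSE1 replicate 3, 3 members rose, 1 of them an enzyme and 2 from the other genes, of which 0 fell (2 at an unadjusted p under 0.05). Without control replicate 3, 1 enzyme rose, and without control replicate 2, 2 of the other genes fell.

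Members had between 129 and 5390 reads per library, and their median coefficient of variation was 4.67% among siGSE1 libraries and 4.04% among control libraries, against 6.88% and 9.08% over all genes tested. The FPKM of the groups did not overlap for 20 of 32 members, 10 higher and 10 lower in siGSE1 cells, and for 36.1% of all genes tested, 21.2% higher and 14.9% lower. These 20 comprised the 16 members that passed and MVD, FDPS, GGPS1 and CYP51A1.

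**Figure D1:**
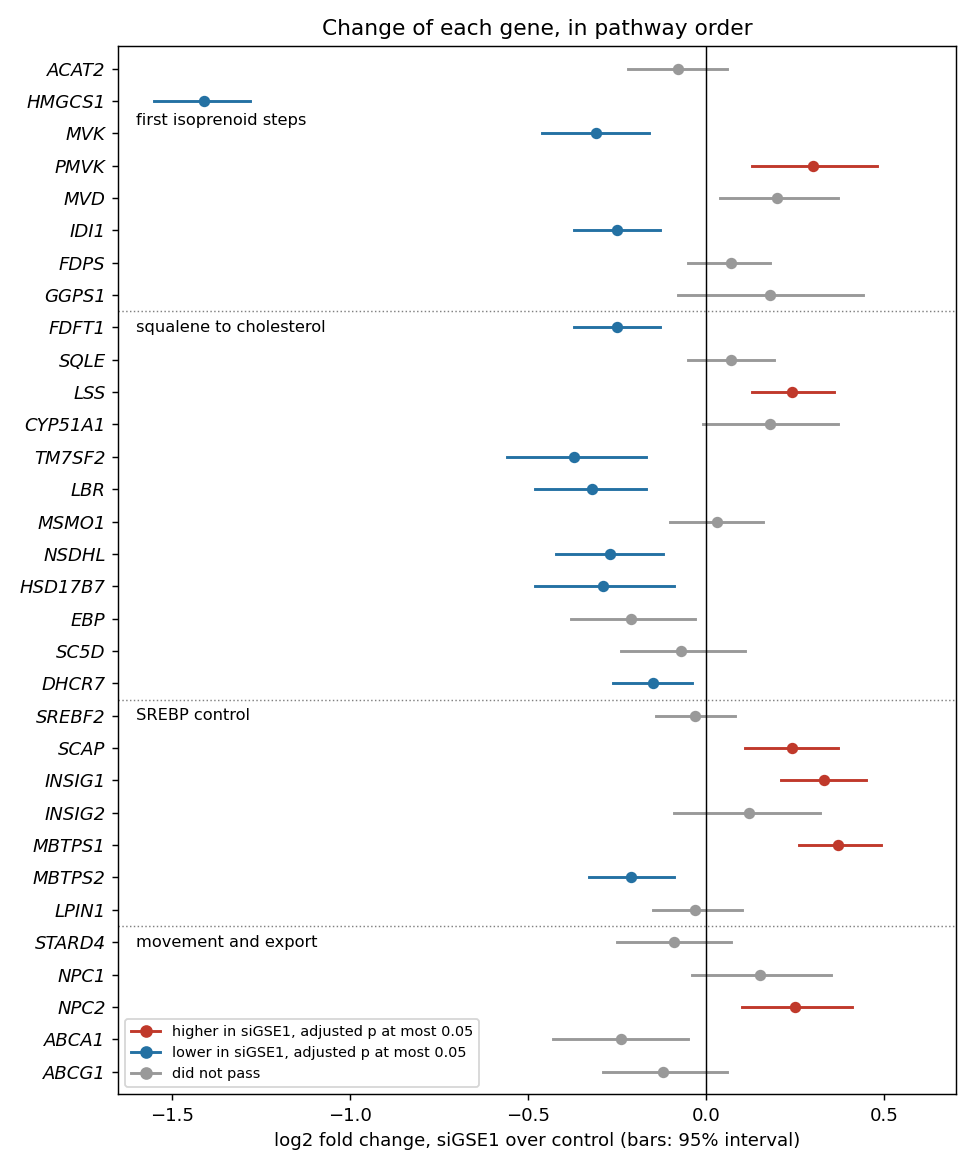
Log2 fold change of each of the 32 genes, siGSE1 over control, in pathway order from top to bottom; points are the edgeR estimates and bars their 95% intervals, coloured by whether the gene passed an adjusted p of 0.05. HMGCS1 sits at -1.41, and every other gene lies between -0.37 and 0.37.

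The knockdown itself was visible in the target. GSE1 had 3.84, 4.06 and 3.73 FPKM in siGSE1 libraries, against 7.37, 8.06 and 7.92 FPKM in control libraries (log2 fold change -1.03, edgeR adjusted p = 2.14e-08). KLF6, the transcription factor named in the series title, had 15.5 ± 0.15 FPKM in siGSE1 cells and 7.32 ± 0.10 FPKM in control cells (SD, n = 3 each). Library totals ran from 17521807 to 19914346 counts in siGSE1 cells and from 14475992 to 20755506 in control cells. Control replicate 2 stood apart from its group, with a chi-square per degree of freedom of 10.1 and 8.97 against the other control libraries, which differed from each other by 4.60. Of 6 epithelial markers, 3 fell (KRT8, KRT18 and CLDN4) and none rose in edgeR's test, beside 9.02% and 10.9% of all genes tested. None rose at an unadjusted p under 0.05 or in DESeq2 either. Their summed level was 1516 to 1547 FPKM in siGSE1 cells and 1569 to 2055 FPKM in control cells. Most of that sum was KRT8 and KRT18, which averaged 640 and 773 FPKM in siGSE1 cells and 754 and 902 FPKM in control cells. Both were highest in control replicate 2, at 862.98 and 1052.69 FPKM. KRT19 and CDH1 did not pass. The number of epithelial markers that fell was 1 without siGSE1 replicate 1, 2 or 3, under both limma analyses, with the robust prior and with TPM scaling. It was 2 without control replicate 2. EPCAM, another epithelial marker, was under 1 FPKM on average in both groups. Defining markers of leukocytes (PTPRC, CD3E), fibroblasts (COL1A2, DCN, PDGFRB) and endothelium (VWF, CDH5, KDR) averaged under 0.1 FPKM in both groups, while CD14 and COL1A1, from the leukocyte and fibroblast lists, averaged 3.88 and 1.42 FPKM in siGSE1 cells and 4.15 and 1.23 FPKM in control cells. The part of these marker differences in the changes below was not tested.

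HMGCS1 encodes the cytosolic synthase that joins acetyl-CoA and acetoacetyl-CoA into HMG-CoA, the precursor of mevalonate. It had 13.69, 13.69 and 12.98 FPKM in siGSE1 libraries, against 37.86, 34.77 and 32.93 FPKM in control libraries. The groups were far from overlapping, and the 3 siGSE1 values lay closer together than the 3 control values. The level fell by 62.5%, and its log2 fold change was -1.41 (95% interval -1.55 to -1.28, SE 0.06, edgeR adjusted p = 1.43e-09). Between 1590 and 1753 reads per siGSE1 library and between 3159 and 5150 per control library stood behind it. Among the 6933 tested genes with a mean of at least 5 FPKM, 0 fell by more, and among all 15937 tested genes 40 did. HMGCS1 kept its call in each of 14 alternative analyses, with log2 fold changes from -1.48 to -1.32. In RNA from whole cultures, a lower level in each cell and fewer cells with the transcript cannot be told apart.

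**Figure D2:**
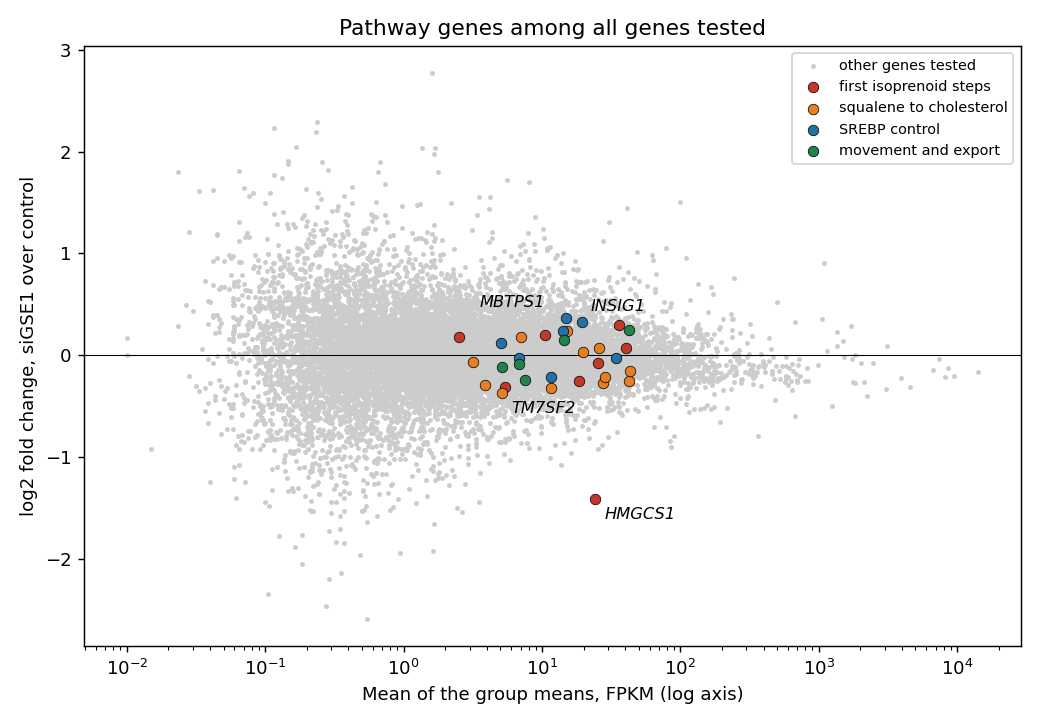
Log2 fold change, siGSE1 over control, against the mean of the 2 group means in FPKM (log axis) for all genes tested in grey and the 32 members in colours by role. HMGCS1 lies alone at -1.41 below the cloud of genes of its abundance, while the other members lie within it.

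HMGCS1 (ENSG00000112972) lies on the minus strand of chromosome 5, from 43287470 to 43313512 in hg38. The nearest tested gene on each side did not pass. NIM1K, a kinase gene with few reads and a 95% interval of -1.36 to 1.16, had 0.14 ± 0.06 FPKM in siGSE1 cells and 0.16 ± 0.13 FPKM in control cells (edgeR adjusted p = 0.933), and TMEM267, a membrane protein gene, had 5.54 ± 0.27 and 5.29 ± 0.25 FPKM (SD, n = 3 each, edgeR adjusted p = 0.795). Both were chosen by position. ZNF131, the zinc finger gene beyond NIM1K, named after its value was seen, had 2.96 ± 0.19 FPKM in siGSE1 cells and 3.50 ± 0.31 FPKM in control cells (SD, n = 3 each, log2 fold change -0.27, edgeR adjusted p = 0.0366). The only annotated gene overlapping HMGCS1, on the opposite strand, had 0 reads in all 6 libraries.

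The promoter sequences of HMGCS1, the member that fell most, and of INSIG1, a known SREBP target among the 6 members that rose, are shown. Each run gives the 250 bases before a RefSeq start site (GRCh38.p14), in the direction of transcription, at chr5:43313413-43313662 on the minus strand for HMGCS1, which has a further annotated start nearby, and at chr7:155297628-155297877 on the plus strand for INSIG1. Capitals mark CCAAT, the box bound by NF-Y, and GGGCGG, the box bound by Sp1, on either strand. Both factors are known partners of SREBP at sterol-regulated promoters.
HMGCS1: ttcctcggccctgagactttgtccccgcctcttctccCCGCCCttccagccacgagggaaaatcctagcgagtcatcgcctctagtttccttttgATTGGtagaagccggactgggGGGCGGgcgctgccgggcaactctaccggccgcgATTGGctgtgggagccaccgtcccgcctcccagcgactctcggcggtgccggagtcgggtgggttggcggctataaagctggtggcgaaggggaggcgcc
INSIG1: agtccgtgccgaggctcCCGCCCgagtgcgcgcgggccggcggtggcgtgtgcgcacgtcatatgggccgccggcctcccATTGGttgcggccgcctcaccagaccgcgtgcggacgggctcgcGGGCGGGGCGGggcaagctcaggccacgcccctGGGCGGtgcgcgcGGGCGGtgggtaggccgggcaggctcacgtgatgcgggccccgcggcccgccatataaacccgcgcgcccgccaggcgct

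The HMGCS1 run holds 2 CCAAT and 2 GGGCGG matches, and the INSIG1 run holds 1 and 5. RefSeq windows of 300 bases (250 before and 50 after each start) were found for 28 members, 8 of which had several, giving 39 windows. The entries for SQLE, FDFT1, ACAT2 and ABCG1 were not used here. CCAAT occurred in 16 of 24 windows of synthesis enzymes and 4 of 15 windows of the other members, against 34.6% of all 35116 RefSeq windows. It occurred in 8 of 13 windows of members that fell, 3 of 7 of members that rose and 9 of 19 of members that did not pass. GGGCGG occurred in 32 of 39 windows, against 45% of all. The E box CACGTG, searched on both strands as its own complement, occurred in 6 of 39, against 7.26%. Windows of one gene can overlap, and a match describes letters, not binding. The shares over all windows were not matched to the members' windows in GC content or in expression.

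The sterol response element written as TCACNCCAC, also searched on both strands, occurred in 1 of the 39 windows, against 1.13% of all windows. That window belongs to SREBF2, the gene of SREBP2 itself, and its match starts 133 bases before the start site. Absence elsewhere says only that these letters are not in those windows. The 30 bases around it (GRCh38.p14, chr22:41832962-41832991, plus strand) are shown with the match in capitals.
SREBF2: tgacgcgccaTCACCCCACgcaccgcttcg

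Among the other 7 genes of the route from acetyl-CoA to farnesyl and geranylgeranyl pyrophosphate, 2 fell, 1 rose and 4 did not pass. For comparison, 9.02% of all genes tested fell and 10.9% rose. MVK, the kinase that phosphorylates mevalonate, had 4.86, 4.71 and 4.98 FPKM in siGSE1 libraries, against 6.11, 5.96 and 5.6 FPKM in control libraries, without overlap (log2 fold change -0.31, SE 0.07, edgeR adjusted p = 0.00663). IDI1, which isomerizes isopentenyl pyrophosphate, had 16.09, 18.05 and 16.92 FPKM in siGSE1 libraries, against 19.93, 19.89 and 19.87 FPKM in control libraries (log2 fold change -0.25, SE 0.06, edgeR adjusted p = 0.00626). The control values of IDI1 were nearly identical, and all 3 siGSE1 values lay below them. PMVK, which acts directly after MVK, moved the other way. It had 38.79, 42.03 and 40.24 FPKM in siGSE1 libraries, against 34.43, 33.13 and 28.40 FPKM in control libraries (log2 fold change 0.30, SE 0.08, edgeR adjusted p = 0.0148).

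Of the members of this stretch that did not pass, MVD, which turns mevalonate pyrophosphate into isopentenyl pyrophosphate, came closest. It had 11.3 ± 1.19 FPKM in siGSE1 cells and 9.60 ± 0.32 FPKM in control cells (SD, n = 3 each, log2 fold change 0.20, edgeR adjusted p = 0.0769). ACAT2, the thiolase that makes acetoacetyl-CoA just before HMGCS1, had 25.1 ± 0.91 FPKM in siGSE1 cells and 26.1 ± 1.78 FPKM in control cells, and the 95% interval of its log2 fold change was -0.22 to 0.06. FDPS, the farnesyl pyrophosphate synthase, had 42.0 ± 1.00 and 39.4 ± 1.59 FPKM, with an interval of -0.05 to 0.18. GGPS1, which extends farnesyl to geranylgeranyl pyrophosphate, had 2.69 ± 0.17 FPKM in siGSE1 cells and 2.33 ± 0.12 FPKM in control cells, with an interval of -0.08 to 0.44. None of these intervals reaches the change of HMGCS1.

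The calls of this stretch other than HMGCS1 and MVK varied over the alternatives. PMVK lost its call without siGSE1 replicate 2 or 3 or control replicate 3 and IDI1 without siGSE1 replicate 1, with adjusted p from 0.00264 to 0.0766 and from 0.00251 to 0.0511 over the 14 alternatives, and MVD passed without siGSE1 replicate 2, without TMM, with no low-count filter and with TPM scaling (0.0237 to 0.343). The span of MVK overlaps that of MMAB, a gene of vitamin B12 metabolism on the opposite strand, and MMAB rose to 4.74 ± 0.37 FPKM in siGSE1 cells, against 3.91 ± 0.14 FPKM in control cells (SD, n = 3 each, edgeR adjusted p = 0.0451). MMAB was named after its value was seen. The spans of MVK and MMAB share only the stretch from 109573255 to 109573580. No source used here says whether counting used strand, so reads from such shared stretches cannot be told apart. The same limit applies to ACAT2, whose span overlaps SOD2, which rose, and TCP1, which fell (log2 fold changes 0.32 and -0.25), and to GGPS1, whose span overlaps ARID4B and TBCE.

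From squalene to cholesterol, 6 of 12 enzymes fell, 1 rose and 5 did not pass. That is 50% lower and 8.33% higher, beside 9.02% and 10.9% of all genes tested. FDFT1, the squalene synthase that commits farnesyl pyrophosphate to sterols, had 36.51, 40.90 and 40.03 FPKM in siGSE1 libraries, against 47.69, 44.81 and 44.68 FPKM in control libraries (log2 fold change -0.25, SE 0.06, edgeR adjusted p = 0.00574). TM7SF2 and LBR both encode sterol reductases that act on the same double bond after the CYP51A1 step, and LBR is also a receptor of the inner nuclear membrane. Both fell. TM7SF2 had 4.74, 4.27 and 4.59 FPKM in siGSE1 libraries, against 5.76, 5.62 and 5.86 FPKM in control libraries (log2 fold change -0.37, SE 0.09, edgeR adjusted p = 0.0107). LBR, the more abundant of the pair, had 11.22, 11.07 and 9.22 FPKM in siGSE1 libraries, against 13.23, 12.66 and 12.80 FPKM in control libraries (log2 fold change -0.32, SE 0.07, edgeR adjusted p = 0.00501). For each of these genes the groups did not overlap.

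Removal of the methyl groups at carbon 4 of the sterol ring takes MSMO1, NSDHL and HSD17B7 in turn. NSDHL had 24.08, 25.17 and 26.59 FPKM in siGSE1 libraries, against 32.24, 28.70 and 28.73 FPKM in control libraries (log2 fold change -0.27, SE 0.07, edgeR adjusted p = 0.0130). HSD17B7 had 3.45, 3.54 and 3.49 FPKM in siGSE1 libraries, against 4.17, 3.86 and 4.57 FPKM in control libraries (log2 fold change -0.29, SE 0.09, edgeR adjusted p = 0.0420). MSMO1, the oxygenase of this step, did not pass, at 20.3 ± 1.23 FPKM in siGSE1 cells and 19.6 ± 0.19 FPKM in control cells (SD, n = 3 each), with a 95% interval of -0.10 to 0.16 on the log2 scale. So within this step NSDHL and HSD17B7 passed, and MSMO1 differed by less than the spread among siGSE1 libraries. DHCR7, the last reductase on the way to cholesterol, had 41.60, 41.36 and 41.98 FPKM in siGSE1 libraries, against 46.82, 45.67 and 44.00 FPKM in control libraries, a small change just past the threshold (log2 fold change -0.15, SE 0.05, edgeR adjusted p = 0.0484).

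LSS, the cyclase that folds epoxidized squalene into lanosterol, was the enzyme of this stretch that rose. It had 16.39, 16.27 and 16.86 FPKM in siGSE1 libraries, against 13.54, 13.40 and 14.18 FPKM in control libraries, without overlap (log2 fold change 0.24, SE 0.05, edgeR adjusted p = 0.00369). SQLE, the squalene epoxidase directly before LSS and a rate-limiting step, had 26.7 ± 1.05 FPKM in siGSE1 cells and 25.0 ± 1.01 FPKM in control cells (SD, n = 3 each), with an interval of -0.05 to 0.19. CYP51A1, the lanosterol demethylase directly after it, had 7.51 ± 0.25 FPKM in siGSE1 cells and 6.51 ± 0.76 FPKM in control cells (interval -0.01 to 0.37). EBP, a sterol isomerase, had 26.6 ± 2.00 and 30.1 ± 2.87 FPKM (interval -0.38 to -0.03, edgeR adjusted p = 0.0866), and SC5D, a sterol desaturase, had 3.13 ± 0.35 and 3.22 ± 0.07 FPKM (interval -0.24 to 0.11). SQLE, LSS and CYP51A1, the steps on either side of lanosterol, all had positive log2 fold changes, of which that of LSS passed.

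Among these enzymes, LBR and LSS kept their calls in all 14 alternatives. HSD17B7 lost its call in 12 of 14 and DHCR7 in 10 of 14, each without siGSE1 replicate 1, 2 or 3 or control replicate 1 among them and HSD17B7 also without control replicate 3 (adjusted p 0.0154 to 0.116 and 0.0223 to 0.204). FDFT1 lost its call without siGSE1 replicate 1 (3.46e-04 to 0.0537 over the alternatives), TM7SF2 without siGSE1 replicate 2 (0.00850 to 0.0606) and NSDHL without siGSE1 replicate 1 or 2 or control replicate 1 (0.00173 to 0.0751). CYP51A1 passed without control replicate 2 (0.0366 to 0.515) and EBP without control replicate 2 or 3 (0.0186 to 0.363). HSD17B7 has a pseudogene, HSD17B7P2, which took reads amounting to 20.0% of those of HSD17B7, so its level is uncertain. TM7SF2 overlaps VPS51 on the same strand, which had more reads than TM7SF2 and did not pass (log2 fold change -0.03).

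**Figure D3:**
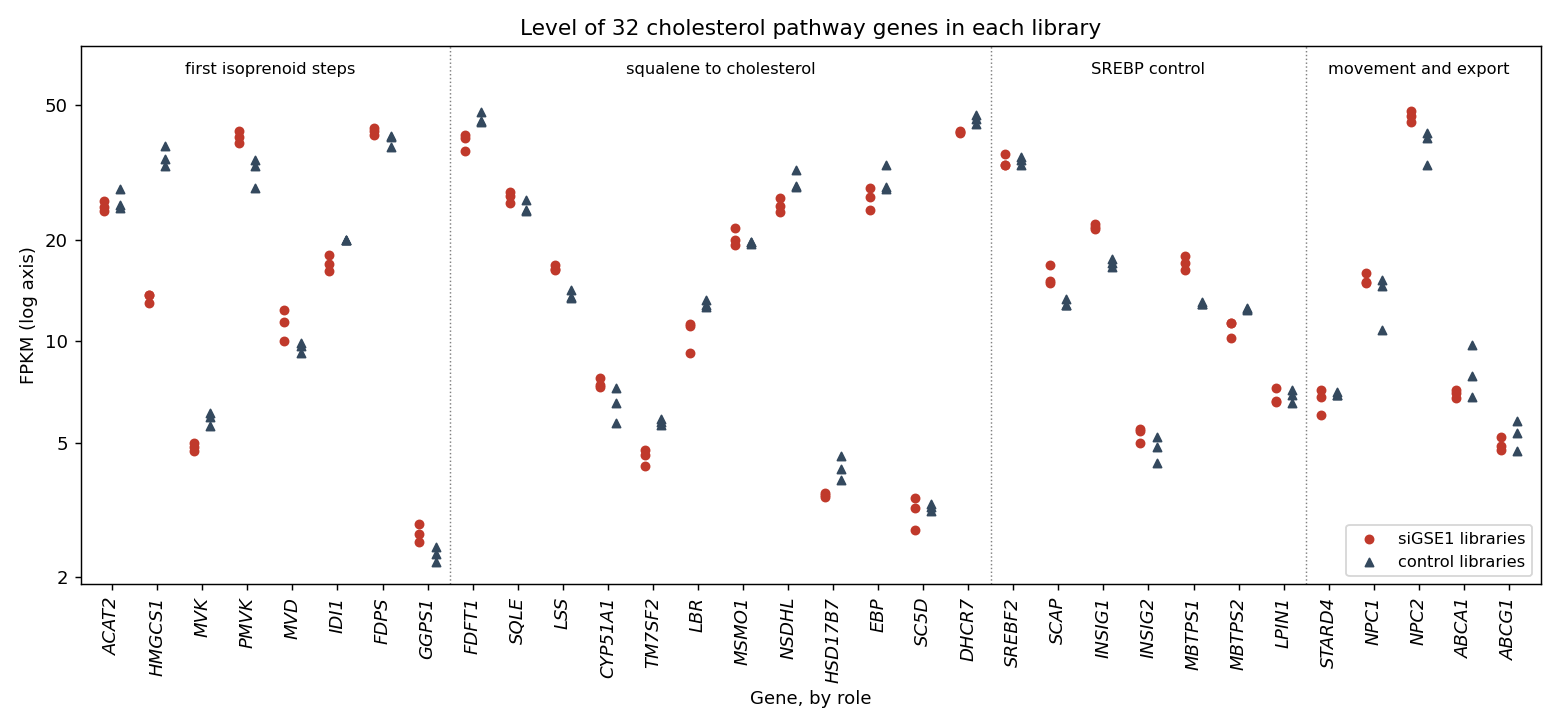
FPKM (log axis) of the 32 genes in each library, grouped by role; circles are the 3 siGSE1 libraries and triangles the 3 control libraries of each gene. HMGCS1 drops to between 12.98 and 13.69 in siGSE1 libraries, against 32.93 to 37.86 in control libraries. The groups of the other genes lie closer together. Of the 32 genes, HMGCS1 included, 10 were higher and 10 lower in siGSE1 libraries without overlap.

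The level of HMGCS1 relative to its neighbours in the route changed accordingly. By FPKM, HMGCS1 ranked 12 among the 20 enzymes in each siGSE1 library and 4 in each control library. It made up 3.38% to 3.65% of the summed FPKM of the 20 enzymes in siGSE1 libraries and 8.26% to 8.83% in control libraries. The summed level of all 20 enzymes was 375, 387 and 384 FPKM in siGSE1 libraries, against 429, 410 and 399 FPKM in control libraries. Without HMGCS1 the sums were 362, 373 and 371 FPKM in siGSE1 libraries, against 391, 375 and 366 FPKM in control libraries, and the groups overlapped. At the head of the order, DHCR7, FDPS, PMVK and FDFT1 filled the first 4 ranks in each siGSE1 library, while FDFT1, DHCR7, FDPS and HMGCS1 filled them in each control library. GGPS1 was last in all 6 libraries.

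Of the 7 genes of SREBP control, 3 rose and 1 fell, with 3 not past the threshold. The shares were 42.9% and 14.3%, beside 10.9% and 9.02% of all genes tested. SREBF2, which encodes the SREBP that mainly drives sterol synthesis, had 33.30, 33.35 and 35.78 FPKM in siGSE1 libraries, against 33.34, 34.37 and 35.16 FPKM in control libraries. The groups overlapped fully, and the 95% interval of the log2 fold change was -0.14 to 0.08. INSIG1, which retains SCAP and SREBP in the endoplasmic reticulum and is itself an SREBP target, had 21.72, 22.27 and 21.43 FPKM in siGSE1 libraries, against 17.46, 17.05 and 16.58 FPKM in control libraries (log2 fold change 0.33, SE 0.06, edgeR adjusted p = 7.04e-04). Its groups were clearly apart, each within a narrow range. INSIG2, the relative of INSIG1 with the same role, had 5.30 ± 0.28 FPKM in siGSE1 cells and 4.79 ± 0.42 FPKM in control cells (SD, n = 3 each), with an interval of -0.09 to 0.32 that includes part of the interval of INSIG1, 0.21 to 0.45. SCAP, the sterol-sensing escort, had 14.87, 15.03 and 16.84 FPKM in siGSE1 libraries, against 12.83, 12.77 and 13.34 FPKM in control libraries (log2 fold change 0.24, SE 0.06, edgeR adjusted p = 0.0107).

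The genes of the successive proteases that release SREBP moved in opposite directions. MBTPS1, the site-1 protease, which also cleaves ATF6 and other precursors, had 17.89, 16.24 and 17.03 FPKM in siGSE1 libraries, against 12.92, 13.06 and 12.85 FPKM in control libraries. The log2 fold change, 0.37 (edgeR adjusted p = 1.63e-04, SE 0.05), was the highest among the members. MBTPS2, the site-2 protease within the membrane, had 11.35, 11.30 and 10.21 FPKM in siGSE1 libraries, against 12.45, 12.36 and 12.49 FPKM in control libraries (log2 fold change -0.21, SE 0.06, edgeR adjusted p = 0.0163). Neither gene had overlapping groups, and the control values of both were nearly identical. LPIN1, a phosphatidate phosphatase that also restrains SREBP in the nucleus, had 6.84 ± 0.36 FPKM in siGSE1 cells and 6.86 ± 0.31 FPKM in control cells (SD, n = 3 each), with an interval of -0.15 to 0.10. INSIG1 and MBTPS1 kept their calls in all 14 alternatives. SCAP lost its call without siGSE1 replicate 3 (adjusted p 0.00254 to 0.0791 over the alternatives), as did MBTPS2 (0.00711 to 0.107), which also lost it under both limma analyses and with TPM scaling.

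Among the genes that move and export cholesterol, 1 of 5 rose and 0 fell in edgeR's test. In that test 1 was lower at an unadjusted p under 0.05, and DESeq2 also called 0 lower. The shares called were 20% and 0%, beside 10.9% and 9.02% of all genes tested. In a list of 5 genes 1 call makes up 20%. NPC2, the small lysosomal protein that hands cholesterol from endocytosed lipoprotein to NPC1, had 46.47, 44.49 and 48.04 FPKM in siGSE1 libraries, against 39.93, 33.32 and 41.46 FPKM in control libraries (log2 fold change 0.25, SE 0.07, edgeR adjusted p = 0.0199). NPC1, its membrane partner, had 15.92, 14.93 and 14.85 FPKM in siGSE1 libraries, against 14.52, 10.82 and 15.13 FPKM in control libraries, with overlap. STARD4, a carrier of cholesterol between membranes and a known SREBP target, had 7.14, 6.83 and 6.03 FPKM in siGSE1 libraries, against 6.90, 6.93 and 7.07 FPKM in control libraries, with overlap and an interval of -0.25 to 0.07. Its antisense partner STARD4-AS1, low at 0.29 FPKM in siGSE1 cells and 0.137 FPKM in control cells, rose (log2 fold change 1.10), and NPC1 and NPC2 overlap RMC1 and ISCA2 on the opposite strand. The exporters ABCA1 and ABCG1, known targets of the sterol-activated LXR receptors, did not pass. ABCA1 had 7.02, 6.79 and 7.14 FPKM in siGSE1 libraries, against 7.90, 6.81 and 9.73 FPKM in control libraries (log2 fold change -0.24, edgeR adjusted p = 0.0755), and ABCG1 had 4.90, 4.74 and 5.18 FPKM, against 5.33, 4.73 and 5.80 FPKM.

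Control replicate 2 was the lowest control library for NPC1, NPC2, ABCA1 and ABCG1, and the median coefficient of variation of the 5 genes was 3.91% among siGSE1 libraries and 11.3% among control libraries. Without that library the log2 fold change was 0.01 for NPC1 (0.15 with it), 0.16 for NPC2, -0.35 for ABCA1 and -0.19 for ABCG1, and ABCA1 passed (adjusted p 6.11e-05 to 0.310 over the alternatives). NPC2 kept its call without control replicate 2 and lost it without siGSE1 replicate 1 or 3 and under both limma analyses (6.97e-04 to 0.109).

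**Figure D4:**
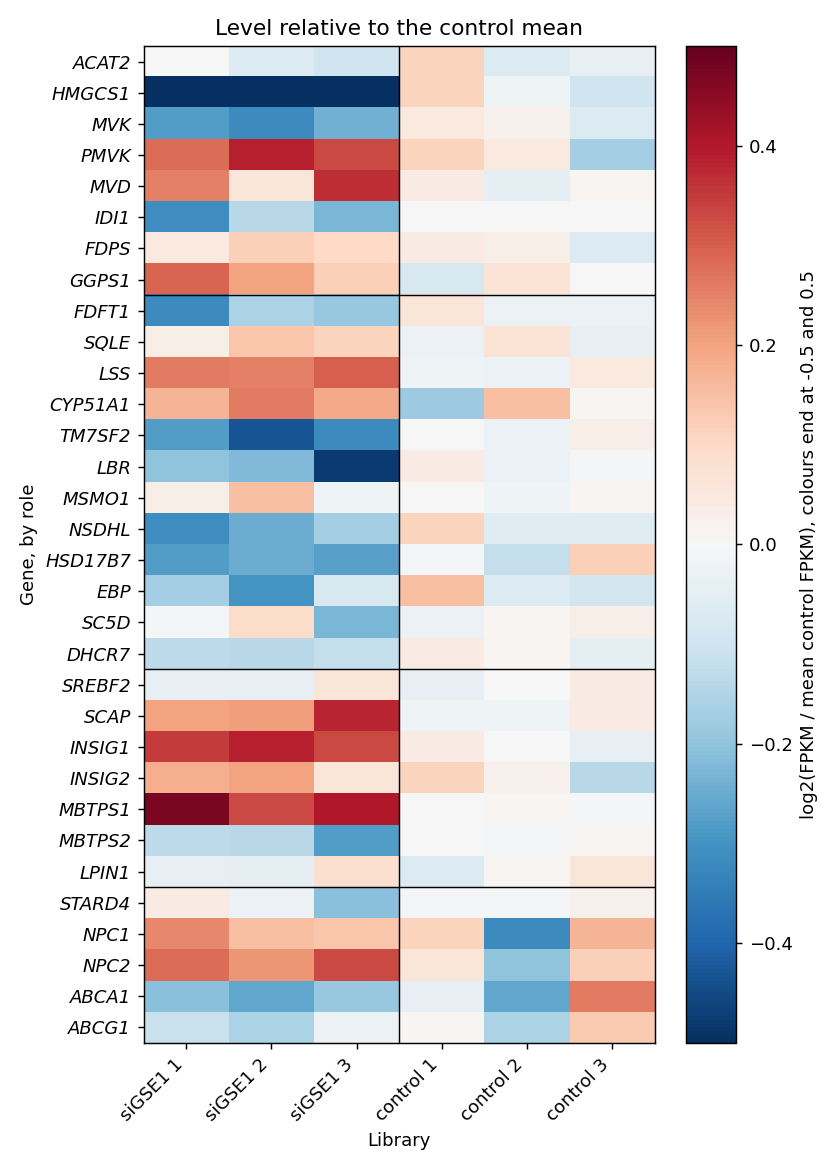
Level of each gene in each library as log2 of its FPKM over the mean of the control libraries, with the siGSE1 libraries on the left, the control libraries on the right and the role groups separated by lines; colours end at -0.5 and 0.5. HMGCS1 lies beyond the scale in all 3 siGSE1 libraries (-1.44 to -1.36), and control replicate 2 is low for NPC1 (-0.32) and NPC2 (-0.20).

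A further 39 genes around the pathway were listed by their known roles, with earlier results of these data known. They were examined in the same fit, and 38 were tested. Of these 8 rose, 2 fell and 28 did not pass, with a median log2 fold change of 0.04. In all 26.3% passed, 21.1% higher and 5.26% lower. Over all genes tested 19.9% passed, 10.9% higher and 9.02% lower. In the group that senses sterols or degrades pathway enzymes, 1 of 11 rose and 1 fell (9.09% each, near the shares over all genes tested). AUP1, a lipid droplet protein of endoplasmic reticulum degradation, rose to 72.4 ± 1.34 FPKM in siGSE1 cells, against 60.1 ± 3.20 FPKM in control cells, and TMEM97, a sterol-responsive partner of NPC1, fell to 54.1 ± 1.91 FPKM, against 63.2 ± 7.52 FPKM in control cells (SD, n = 3 each, edgeR adjusted p = 0.00653 and 0.0203). In this group 0 fell without siGSE1 replicate 1, 2 or 3, under both limma analyses and with TPM scaling, with 1 or 2 lower at an unadjusted p under 0.05, and 2 fell with no low-count filter and with the robust prior. With TPM scaling 2 rose.

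Of 17 genes of sterol movement, storage and uptake, 5 rose (29.4%) and 0 fell in edgeR's test. Over all genes tested 10.9% rose and 9.02% fell. None of the 17 was lower at an unadjusted p under 0.05, and DESeq2 called 0 lower. VLDLR, a lipoprotein receptor, had 7.19 ± 0.15 FPKM in siGSE1 cells and 5.56 ± 0.71 FPKM in control cells (SD, n = 3 each, log2 fold change 0.35, edgeR adjusted p = 0.00470). CAV1, the cholesterol-binding coat protein of caveolae, had 69.8 ± 3.07 FPKM in siGSE1 cells and 54.7 ± 9.67 FPKM in control cells (log2 fold change 0.33, edgeR adjusted p = 0.0207). GRAMD1B, which carries cholesterol from the plasma membrane to the endoplasmic reticulum, and OSBP, which exchanges it with the Golgi, had log2 fold changes of 0.22 and 0.19 (edgeR adjusted p = 0.00842 and 0.0262). The number that rose was 1 without siGSE1 replicate 1, 2 without siGSE1 replicate 3, 3 under both limma analyses and 8 with TPM scaling. Without control replicate 2, 7 rose and 2 fell.

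Among 10 genes that use isoprenoids, the side branch that leaves the route at farnesyl pyrophosphate, 2 rose and 1 fell. These were 20% and 10% of the list, beside 10.9% and 9.02% of all genes tested. ICMT, which methylates the ends of prenylated proteins, had 34.5 ± 1.99 FPKM in siGSE1 cells and 23.2 ± 1.62 FPKM in control cells (SD, n = 3 each, log2 fold change 0.54, edgeR adjusted p = 2.25e-05), a larger change than that of any member but HMGCS1. PDSS2, a subunit of the enzyme that builds the coenzyme Q tail, had 4.69 ± 0.19 FPKM in siGSE1 cells and 3.29 ± 0.88 FPKM in control cells (log2 fold change 0.47, edgeR adjusted p = 0.0310). PGGT1B, a subunit of geranylgeranyl transferase, had 1.06 ± 0.23 FPKM in siGSE1 cells and 1.51 ± 0.09 FPKM in control cells (log2 fold change -0.54, edgeR adjusted p = 0.0115). The counts were 3 higher and 3 lower without control replicate 2, and 1 higher and 0 lower without siGSE1 replicate 3 and under both limma analyses, with 2 or 3 lower at an unadjusted p under 0.05. Without any 1 of the other 4 libraries 1 rose and 1 fell, and with no low-count filter or the robust prior 2 rose and 2 fell.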

How the data were processed

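Bulk RNA was measured in 6 libraries of A549 cells, made from 500 ng of total RNA each with the Illumina TruSeq kit, per the labels' protocols. The authors deposited 1 table with whole-number read counts and FPKM per gene and library. Per the submitters' processing notes, HISAT2, StringTie 1.3.3b, HTSeq, edgeR and the hg38 build were used, with no roles given, whereas the series text names STAR, RPKM and DESeq2. The deposited counts carry no normalization. The deposited FPKM equal the count divided by exonic length and library total within 0.0051 in 100% of values.

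Counts were tested with edgeR 4.0.16 (quasi-likelihood, TMM factors, filterByExpr at a count of 10 and a total count of 15, group as the single term) over 15937 genes, with Benjamini-Hochberg adjustment over all of them and a threshold of 0.05. Standard errors are the absolute log2 fold change over the square root of F. Fold changes come from this model, levels are FPKM as deposited. Alternatives were DESeq2 1.42.0, no TMM, no filter, limma 3.58.1 on log2(FPKM + 1) and log2(FPKM + 0.1), a robust prior, a replicate block, each library left out, and, chosen after seeing the data, TPM scaling. At 14475992 to 20755506 counts per library the biological coefficient of variation was 7.0%. Every member is named, with values in every library for those that passed. Members and lists were chosen with earlier results of these data known, and up to 4 passing genes with the smallest adjusted p are named from each further list. Promoter sequences are from RefSeq.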

Additional observations from a re-analysis of the deposited data

How the results depend on the processing

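Over 14 alternatives, HMGCS1, MVK, LBR, LSS, INSIG1 and MBTPS1 kept direction and call, and none of the 16 called members changed sign. Of 32 members, 10 lost their call under at least 1 alternative and 4 gained one. With libraries left out in turn, 3 to 7 members rose and 5 to 12 fell; among synthesis enzymes 1 to 3 rose and 4 to 10 fell, and among control and movement genes 2 to 4 rose and 0 to 2 fell (main counts 4 and 1). Over all genes 1049 to 1914 rose and 814 to 1648 fell. The lowest counts of members and enzymes that fell came without siGSE1 replicate 1, and the other lowest counts without siGSE1 replicate 3 (for enzymes that rose, also without control replicate 3). The number of genes that fell was 887 and 909 under limma with pseudocounts of 1 and 0.1, and 929 with TPM scaling, where 2544 rose and the share of rises went to 73.3% (54.6% in the main analysis, 62.4% without TMM). Among control and movement genes, 0 fell under both limma analyses and TPM scaling, where 1 was lower at an unadjusted p under 0.05, and 2 fell with no low-count filter and with the replicate block. The members' median of -0.05 was -0.02 without TMM, -0.02 and -0.03 under limma and 0.01 with TPM scaling, which shifted the median of all genes by 0.07. Uncalled members near 0 changed sign. SREBF2 was 0.03 and LPIN1 0.04 with TPM scaling, and with libraries left out MSMO1 ran from -0.02 to 0.07, SC5D from -0.14 to 0.02 and LPIN1 from -0.07 to 0.00. The causes of these shifts were not tested.

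Libraries of the same replicate number showed no clear shared deviation, which does not settle whether they were handled together. Deviations of same-numbered libraries correlated at 0.02, -0.02 and 0.00. With the replicate block 6 members rose and 9 fell, and over all genes 1715 rose and 1382 fell; HSD17B7 and DHCR7 lost their calls and ABCA1 passed. Depth was 129 to 5390 reads per member and library, with 3 libraries a group.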
